A study of Ovis aries with 32 samples.

Results

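IDH1 is the cytosolic, NADP-dependent isocitrate dehydrogenase, and its mRNA was followed here in the hearts of 14-day-old lambs. All probes named IDH1 in the scanner output were taken, either by gene name or by the sheep symbol of their transcript. They came to 1 probe, A_70_P039481, of the 15008 probes of the sheep array, on which 1034 genes had a named probe. The gene was chosen by its values in the comparison of CORT with Control lambs. Its levels in those groups are therefore given as a description, with no test.

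The study asked how a rise of maternal cortisol in late gestation alters the hearts of the offspring after birth. CORT lambs were born to ewes that received 0.5 mg/kg/day cortisol overnight until delivery, and Control lambs to untreated ewes. The lambs themselves received no cortisol. RNA of the left ventricular free wall (LV) and the interventricular septum (IVS) was measured with 8 lambs per group and tissue, 1 sample on each of 32 arrays. Twins were born in both groups, so some lambs may share a ewe. The labels name neither the ewe nor the sex of a lamb, and neither was used. Both pieces were dissected from the same hearts, but the labels do not tie an LV sample to an IVS sample.

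IDH1 works in the cytosol and in peroxisomes, where it converts isocitrate to 2-oxoglutarate and reduces NADP to NADPH. NADPH supplies electrons for fatty acid and sterol synthesis and for the glutathione and thioredoxin systems that remove peroxides. IDH2 catalyses the same reaction in mitochondria, whereas the IDH3 enzyme of the citric acid cycle uses NAD.

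The probe is a stretch of 60 bases that starts at base 2130 of the IDH1 transcript, as the scanner output gives it. The output gives no genome position for it. Its first 30 bases are shown because every IDH1 value below rests on this 1 sequence, and 35% of all its bases are G or C.

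A_70_P039481, first 30 bases: gacctctgctggcctcttttatttccttta

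No other probe of the array shared a run of 15 bases with it on either strand. The probe was spotted once per array and was well above background on 32 of 32 arrays. It was saturated on 0 arrays and marked as an outlier on 0. Its intensity lay between 3051 and 16043, which was 70.5 to 297 times the local background. With 1 probe, agreement between probes of the gene could not be measured.

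Across the arrays the median spot intensity lay between 131 and 332, and 59.7% to 80.4% of spots were well above background. Precision is limited by how many arrays there were. MB, myoglobin of striated muscle, was the only 1 of 15 cardiomyocyte markers with a named probe, and its log2 level of 17.41 to 18.57 was high on every array. In whole tissue, fewer cells of a type and less RNA per cell cannot be told apart.

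IDH1 was lower in CORT than in Control lambs in the LV. Levels are log2 of background-corrected, quantile-normalized intensity, so a difference of 1 is a doubling of signal. The 8 Control lambs ran from 11.87 to 13.09 with a median of 12.77, and their mean was 12.65 ± 0.41 (SD, n = 8). The 8 CORT lambs ran from 11.88 to 12.48 with a median of 12.24 and a mean of 12.19 ± 0.24 (SD, n = 8). All 8 CORT lambs lay below the Control mean, and 6 of 8 Control lambs lay above the highest CORT lamb. The ranges overlapped. The lowest Control lamb lay just under every CORT lamb, and another, at 12.27, lay within the CORT range.

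The difference of means, CORT minus Control, was -0.46 (SE 0.15) on the log2 scale in the LV. This equals a signal 27.4% lower. The median difference over the 11518 probes examined in the LV was 0.0015. A difference at least as low as that of IDH1 was seen for 43 probes, or 0.373%, IDH1 included. The gene was chosen by this contrast, so its place among the probes is a description and no support.

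IDH1 was also lower in CORT lambs in the IVS. Control lambs ran from 12.04 to 13.55 with a median of 13.05 and a mean of 12.90 ± 0.55 (SD, n = 8). CORT lambs ran from 11.94 to 12.62 with a median of 12.38 and a mean of 12.32 ± 0.24 (SD, n = 8). All 8 CORT lambs were below the Control mean, 5 of 8 Control lambs were above the highest CORT lamb, and 1 CORT lamb was below the lowest Control lamb.

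The difference in the IVS was -0.58 (SE 0.20) on the log2 scale, a signal 33.1% lower. The median over 11685 probes examined in the IVS was -0.0082, and 29 probes, or 0.248%, differed at least as far downward. Of the 11315 probes examined in both tissues, 18 were at least as low as IDH1 in each. These counts, too, follow from how the gene was chosen. The IVS difference minus the LV difference was -0.12, with an SE of 0.25 if the tissues are treated as independent, and it was not tested.

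**Figure D1:**
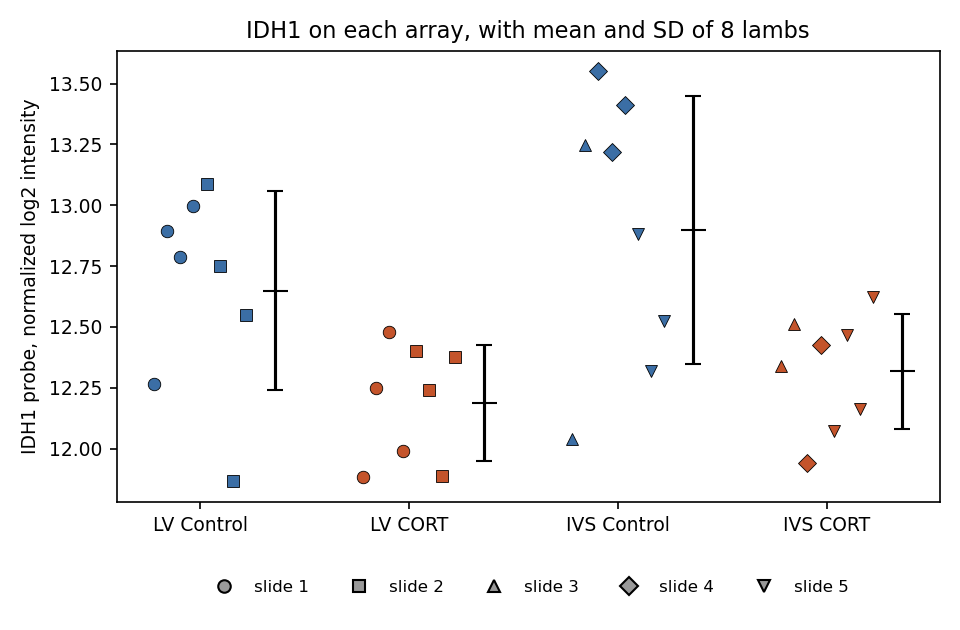
Log2 normalized intensity of the IDH1 probe on each of the 32 arrays, by tissue and treatment, with each tissue normalized on its own. Points are lambs and the bars give the mean and SD of 8; the CORT points cluster between 11.88 and 12.62 while the Control points reach 13.55.

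Over all the slides of a tissue, Control lambs were spread more widely than CORT lambs. The SD of the Control group was 1.72 times that of the CORT group in the LV and 2.33 times in the IVS. This ratio was not tested.

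The arrays lay on 5 slides, with Control and CORT lambs on each of them and 1 tissue per slide. IDH1 was lower in CORT lambs on all 5, by different amounts. On slide 1 of the LV the Control lambs were at 12.27, 12.90, 12.79 and 13.00, and the CORT lambs at 11.88, 12.25, 12.48 and 11.99. The difference there was -0.59. On slide 2 the Control lambs were at 13.09, 12.75, 11.87 and 12.55, and the CORT lambs at 12.40, 12.24, 11.89 and 12.38. The difference there was -0.34, and this slide held the lowest Control lamb.

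In the IVS the groups stood apart on 1 slide more than on the others. On slide 4 the 3 Control lambs were at 13.55, 13.22 and 13.41 and the 2 CORT lambs at 11.94 and 12.43, a difference of -1.21 with no overlap. On slide 3 the Control lambs were at 12.04 and 13.25 and the CORT lambs at 12.34 and 12.51, a difference of -0.22. On slide 5 the 3 Control lambs were at 12.88, 12.32 and 12.52, and the 4 CORT lambs at 12.07, 12.47, 12.16 and 12.62, a difference of -0.24. The groups overlapped on both of these slides.

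With slide as a block the IVS difference was -0.53 (SE 0.19). With no block, the difference of -0.58 became -0.24 (SE 0.20) when slide 4 was left out, so its size rested largely on the 5 arrays of that slide. Likewise with no block, it was -0.70 without slide 3 and -0.79 without slide 5.

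The wider spread of Control lambs was not seen on every slide. From the lowest to the highest lamb, Control lambs spanned 0.73 and CORT lambs 0.60 on slide 1, and 1.22 and 0.52 on slide 2. On slide 3 they spanned 1.21 and 0.17. On slide 4 the Control lambs spanned less than the CORT lambs, 0.33 against 0.49, and on slide 5 the spans were 0.56 and 0.55.

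**Figure D2:**
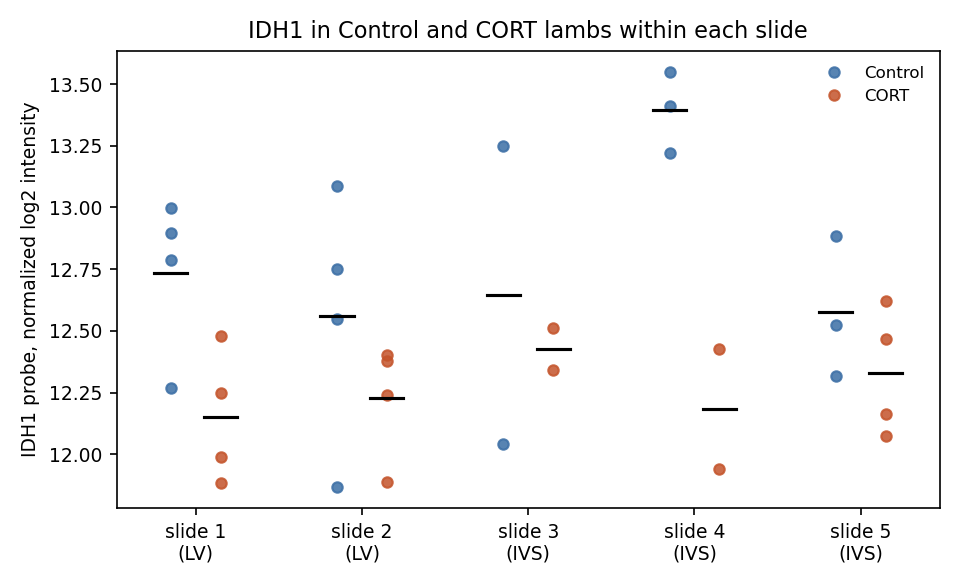
Log2 normalized intensity of IDH1 by slide, with slides 1 and 2 carrying the LV and slides 3 to 5 the IVS. Points are lambs and short lines are group means; the gap between the means is widest on slide 4, at 1.21.

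IDH1 kept its direction however the signals were processed. Over 13 other ways of processing the arrays or fitting the model, the LV difference lay between -0.55 and -0.44, and the IVS difference between -0.61 and -0.50. Leaving out each array in turn gave -0.57 to -0.40 in the LV and -0.70 to -0.49 in the IVS.

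**Figure D3:**
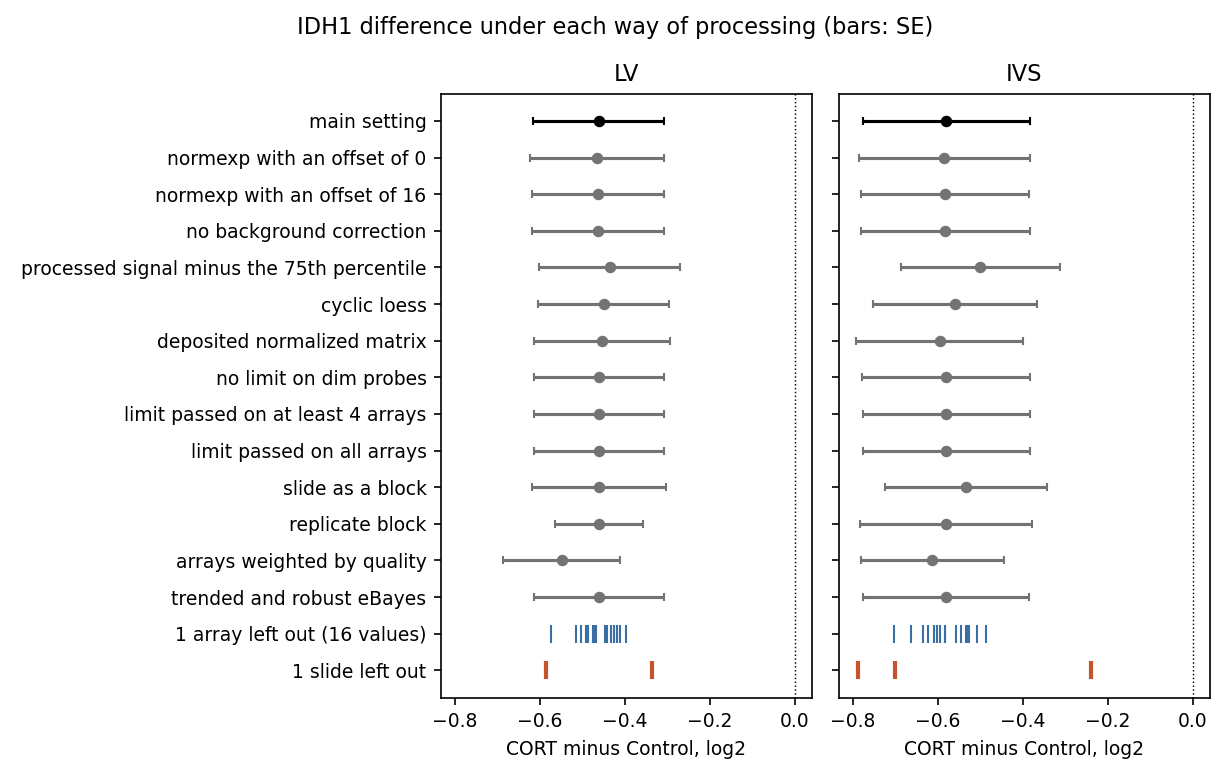
Difference of IDH1, CORT minus Control, on the log2 scale in the LV and IVS under each way of processing, with bars for the SE. Ticks give the values with 1 array or 1 slide left out; every value lies below 0, and the IVS value nearest 0 is that without slide 4, at -0.24.

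The level of IDH1 was then compared between the tissues, a contrast that the choice of the gene did not use. All 32 arrays were normalized together for this, which shifts the means slightly. IVS Control lambs had the highest mean at 12.86 ± 0.56 (SD, n = 8), followed by LV Control lambs at 12.69 ± 0.40. IVS CORT lambs were at 12.27 ± 0.24 and LV CORT lambs at 12.24 ± 0.23. The step from LV Control to IVS CORT lambs crosses treatment and was not tested.

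In Control lambs the IVS minus LV difference by limma was 0.16 (SE 0.26, 95% interval -0.37 to 0.69, adjusted p = 0.861). In the same comparison 19 of 12344 probes, or 0.154%, passed an adjusted p of 0.05. In CORT lambs the difference by limma was 0.058 (SE 0.26, 95% interval -0.47 to 0.59, adjusted p = 0.998), and 4 probes, or 0.0324%, passed. Neighbours within a treatment thus did not differ beyond their spread, although the intervals leave room for differences of the size seen between treatments. Each slide held 1 tissue, so slide entered as a random block.

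IDH1 was then set beside the other genes listed for NADPH supply, few of which had a named probe. Of 16 other genes listed for NADPH supply, 4 had a named probe. In either tissue 0 of these 4 passed an unadjusted p of 0.05 by limma. Over all probes, 3.85% passed in the LV and 3.59% in the IVS, and 0 probes passed after Benjamini-Hochberg adjustment in either tissue. At such shares, 0 of 4 genes is uninformative. The median difference of the 4 genes was -0.045 in the LV and -0.075 in the IVS. Probes for IDH2, the IDH3 subunits, ACO1, and the malic enzymes ME2 and ME3 were not named, so 0 of 6 listed genes of isocitrate metabolism could be described.

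PGD, an NADPH-producing dehydrogenase of the pentose phosphate pathway, had 2 probes. On the brighter of them, LV Control lambs ran from 12.50 to 12.73 and LV CORT lambs from 12.25 to 12.78, so the groups overlapped. The probes differed by -0.035 (SE 0.074) and -0.047 (SE 0.059) in the LV. In the IVS they differed by 0.023 (SE 0.10) and -0.037 (SE 0.094).

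ME1 is the cytosolic malic enzyme, which makes NADPH from malate. It differed by -0.015 (SE 0.16) in the LV, where Control lambs ran from 8.72 to 9.97 and CORT lambs from 8.94 to 9.68. In the IVS it differed by -0.24 (SE 0.20), with Control lambs from 9.04 to 10.26 and CORT lambs from 8.69 to 9.75. The flat LV value of ME1 joined slides that went opposite ways, since with slide 1 left out it differed by 0.41 (SE 0.15) and with slide 2 left out by -0.44 (SE 0.16). TALDO1, a pentose phosphate pathway enzyme that does not itself make NADPH, differed by -0.076 (SE 0.10) in the LV and -0.12 (SE 0.12) in the IVS. In the IVS it passed an unadjusted p of 0.05 by limma with slide 5 left out, at -0.30 (SE 0.12). It also passed there with Control lamb 8 left out, at -0.21 (SE 0.087). GLUD1, the mitochondrial glutamate dehydrogenase, differed by -0.056 (SE 0.11) and -0.033 (SE 0.17).

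**Figure D4:**
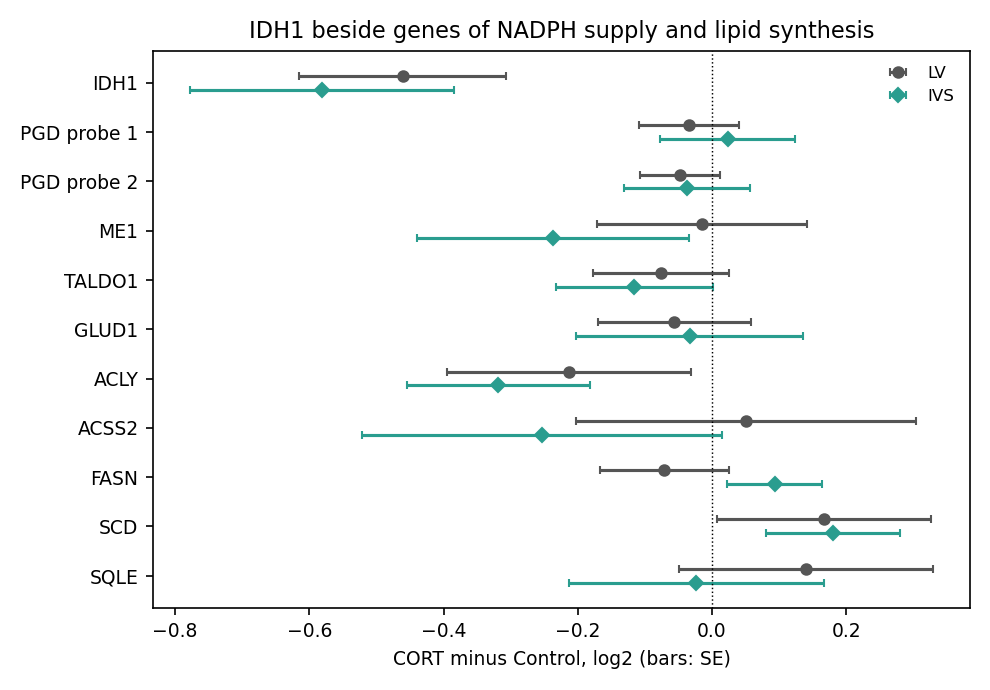
Difference, CORT minus Control, on the log2 scale in the LV and IVS, with bars for the SE. Shown are IDH1, the named genes listed for NADPH supply and 5 genes of lipid synthesis. IDH1 lies at -0.46 and -0.58. It was chosen by its values in this contrast, so its place below the other genes is a description and no result.

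The routes that use NADPH were thinly covered. In fatty acid and sterol synthesis, 7 of 27 listed genes had a named probe and 6 were bright enough to test. Over all probes, 3.59% passed an unadjusted p of 0.05 by limma in the IVS and 3.85% in the LV. ACLY, which cleaves citrate to supply cytosolic acetyl-CoA, was the only 1 of the 6 genes to pass it. In the IVS its Control lambs ran from 8.13 to 9.07 and its CORT lambs from 7.85 to 8.52. The difference was -0.32 (SE 0.14, unadjusted p = 0.0321, adjusted p = 0.993 by limma), and it was -0.21 (SE 0.18) in the LV. The other 5 genes tested did not pass in either tissue, among them FASN, the fatty acid synthase, at -0.071 (SE 0.097) in the LV and 0.094 (SE 0.071) in the IVS. SCD, the stearoyl-CoA desaturase, differed by 0.17 (SE 0.16) in the LV and 0.18 (SE 0.10) in the IVS.

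In the glutathione and thioredoxin system 2 of 25 listed genes were named, and 0 passed an unadjusted p of 0.05 by limma. Over all probes 3.85% passed in the LV and 3.59% in the IVS, so 0 of 2 is uninformative. TXN, thioredoxin, differed by -0.030 (SE 0.089) in the LV and 0.11 (SE 0.18) in the IVS. GSTA1, a glutathione transferase, differed by 0.067 (SE 0.12) and 0.25 (SE 0.26). Of the citric acid cycle list only PCK1, a gluconeogenic enzyme, was named, and 0 of 26 peroxisome genes were.

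Markers of other cell types were set beside IDH1. Adipose tissue is rich in IDH1, and 5 of 13 adipocyte markers were named (FABP4, LEP, LPL, PLIN1 and PPARG). None of the 5 tested in the LV or the 4 tested in the IVS passed an unadjusted p of 0.05 by limma. Over all probes 3.85% passed in the LV and 3.59% in the IVS, so these counts are uninformative. Summed on the linear scale, the log2 level of the 5 markers lay between 12.26 and 13.12 in LV Control lambs. In LV CORT lambs it lay between 12.25 and 12.89. In the IVS it lay between 12.29 and 13.01 in Control and 12.18 and 12.86 in CORT lambs. LPL was by far the brightest, with a mean of 12.33 in LV Control lambs against 7.05 for LEP and 9.30 for PPARG. The sum thus mostly follows LPL and cannot show how much fat a sample held. FABP4, a lipid carrier of adipocytes, was bright enough to test only in the LV, at 0.12 (SE 0.68).

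The remaining marker lists held few genes bright enough to test. In the LV these were 1 cardiomyocyte, 2 endothelial, 2 fibroblast, 1 smooth muscle, 2 erythrocyte and 4 leukocyte markers. The IVS differed only in having 3 endothelial markers. Against 3.85% of all probes in the LV and 3.59% in the IVS, 1 gene of these lists passed an unadjusted p of 0.05. With so few genes this is no result about a cell type. The gene was COL3A1, of the 2 named fibroblast markers. This collagen differed by -0.28 (SE 0.10, unadjusted p = 0.0131, adjusted p = 0.999 by limma) in the LV and by 0.098 (SE 0.14) in the IVS. DCN, the other fibroblast marker, differed by 0.078 (SE 0.11) and 0.18 (SE 0.087). Of 6 named leukocyte markers, CD4 was not well above background on any array. The 4 leukocyte markers bright enough to test went both ways in the LV. LYZ, lysozyme of myeloid cells, differed there by -0.44 (SE 0.29), ITGB2, an integrin subunit of leukocytes, by -0.25 (SE 0.23), and CD14, a monocyte receptor, by -0.091 (SE 0.096). CD3E of T cells differed by 0.15 (SE 0.22). In the IVS these 4 differed by -0.17 to -0.027. The part of these cells in the IDH1 difference was not tested.

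The genes most like IDH1 from lamb to lamb were then sought. Each array's deviation from the mean of its group on its slide was taken, which removes treatment and slide. Pearson's r with IDH1 was computed over 32 arrays for 11314 other probes, and 0.99% of them had r above 0.5. All probes of an array share its RNA and its processing, and a lamb can enter with both tissues. Taking out 10 group means also ties the deviations to each other. Where a group had 2 arrays on a slide, these give mirror-image points. The 32 arrays are thus not independent, and r is a description.

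Among 744 named genes the highest r was that of ANG-2, named angiopoietin-2 in the files, at 0.65 (0.61 in the LV and 0.69 in the IVS). Its other probe had 0.63. PSME2, a subunit of the proteasome activator, followed at 0.61, with 0.60 for its other probe. ISG15 at 0.56 and MX1 at 0.55 are both genes that interferon induces. SNAI2, a transcription factor, also had 0.55, but 0.40 on its other probe.

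The differences of these genes between treatments stand beside those of IDH1, -0.46 and -0.58, as values. ANG-2 differed by -0.017 in the LV and -0.033 in the IVS, and PSME2 by -0.069 and -0.021. MX1 differed by 0.013 and -0.027. ISG15 spread widely, from 9.42 to 13.68 in LV Control and 9.25 to 14.27 in LV CORT lambs. It differed by -0.75 (SE 0.68) in the LV and -0.50 (SE 0.68) in the IVS.

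The lowest r among named genes was that of a probe of PRNP, the prion protein gene, at -0.60, but its other 3 probes had -0.45, -0.059 and 0.027. PTGS2, the inducible cyclooxygenase, had -0.58, and BMPR1B, a receptor of bone morphogenetic proteins, had -0.56. Of the genes listed for NADPH supply, TALDO1 had 0.42 and the PGD probes had 0.35 and 0.34, whereas ME1 had 0.05 and GLUD1 0.03. Cell markers outside that list reached as far. The endothelial marker PECAM1 had 0.45, whereas the brighter MB probe had 0.0067. The probes of the fibroblast marker DCN had -0.44 and -0.34, but their sign differed by tissue. They had -0.78 and -0.62 in the LV against 0.19 and 0.26 in the IVS. COL3A1, the other fibroblast marker, had 0.061 and 0.044 on its probes. These had -0.24 and -0.28 in the LV and 0.43 and 0.43 in the IVS.

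**Figure D5:**
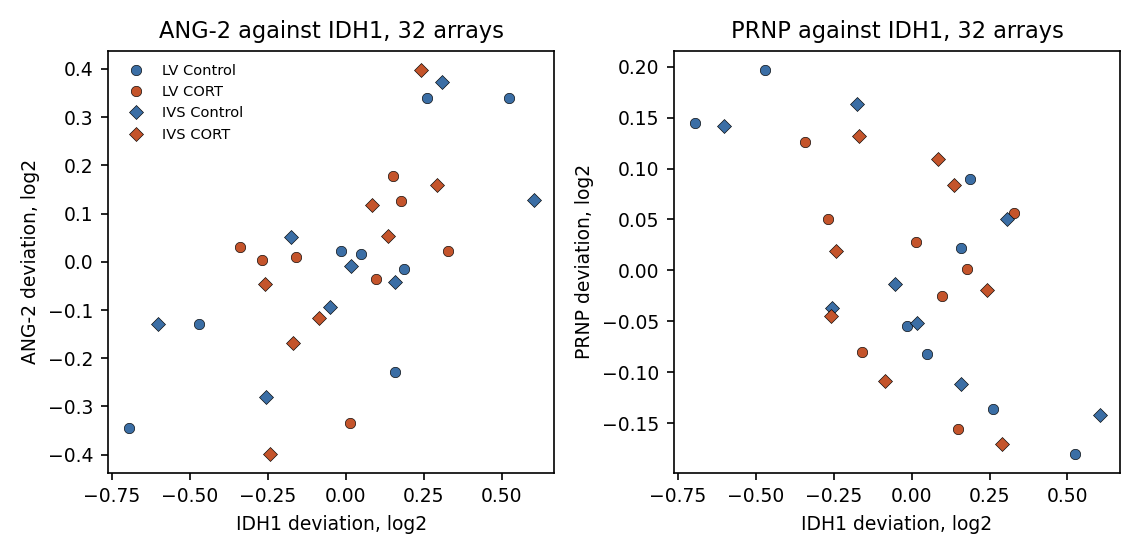
Deviation of each array from the mean of its group on its slide, in log2 units, for IDH1 against ANG-2 and against PRNP over 32 arrays. The points of ANG-2 rise with IDH1 (r of 0.65) and those of PRNP fall (r of -0.60), and the points are not independent.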

How the data were processed

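Total RNA of the LV and IVS was hybridised to 1-colour Agilent sheep arrays. Labels and methods name unlike dyes and RNA inputs, which enters no value here. The authors deposited scanner output (Agilent Feature Extraction 10.1.1.1) holding spot intensity and local background in arbitrary units, and per tissue a log2 matrix, normalized by limma, of 8807 LV and 9001 IVS probes. Treatment, tissue and age came from the labels, and slide from the scanner output. The epicardial fat was not analysed here.

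From the deposited intensity, values were corrected by normexp (offset 50), quantile-normalized within a tissue and taken to log2 with limma 3.58.1 in R 4.3.3. Control spots were left out, and probes were kept if over 1.1 times the 95th percentile of negative controls on at least 8 arrays. CORT and Control lambs were compared within a tissue by limma's moderated test, two-sided, with Benjamini-Hochberg adjustment over all probes kept. The tissues were compared on 32 arrays normalized together, with slide as a random block (correlation 0.26). Samples are separate lambs within a tissue and group, but p-values treat twins as independent.

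Gene names came from the scanner output and from RefSeq accessions, which named 1656 of 15008 probes (1034 symbols), so most genes of a list could not be looked up. The brightest probe stood for a gene of a list. The genes named were IDH1, set isocitrate and NADPH enzymes, any gene of the lists past an unadjusted p of 0.05, and the 5 named genes with the highest and 3 with the lowest r. FASN, SCD, TXN, GSTA1, PCK1, TALDO1, GLUD1 and the markers were named as examples. The gene and the lists were chosen with earlier results of these data known. Some genes are not reported here. The code was tested on simulated data. Alternatives covered background correction, normalization, the deposited matrix, the limit on dim probes, blocks, array weights, the variance prior and leaving out arrays.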

Additional observations from a re-analysis of the deposited data

Results flagged for a closer look

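For the IDH1 probe and 12 probes of the other named genes, 52 groups of 8 lambs were searched for a lamb far from the rest, and 4 were found. Chance marks about 1 in 20 groups. None of them was an IDH1 value. MX1, an interferon-induced gene, stood at 13.36 in LV CORT lamb 2 against 9.70 to 10.98 in the other 7 lambs. In the IVS it stood at 13.27 in CORT lamb 1 against 9.61 to 11.07, and the labels do not say whether these samples share a lamb. ACLY stood at 9.22 in LV CORT lamb 4 against 8.19 to 8.43. PTGS2 stood at 8.03 in LV Control lamb 7, the Control lamb with the lowest IDH1 in the LV, against 6.76 to 7.09.

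The differences between CORT and Control lambs were also compared between the tissues for 12 probes, those of ACLY, ME1, PGD and the 8 genes most and least like IDH1. Of these, 0 passed an adjusted p of 0.05 by limma (lowest adjusted p = 0.999), and 0 had an unadjusted p under 0.05. COL3A1 and the other genes were not compared in this way.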

How the results depend on the processing

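No setting turned the IDH1 difference between CORT and Control lambs, and without slide 4 the IVS value was -0.24 against -0.58. The IVS minus LV difference of IDH1 in CORT lambs reversed to -0.024 with the processed signal minus each array's 75th percentile, and its adjusted p stayed above 0.94 under 12 alternatives; in Control lambs the lowest was 0.421. Leaving out each array in turn gave 0.044 to 0.31 in Control lambs (lowest adjusted p 0.740) and 0.0067 to 0.16 in CORT lambs. The count of probes with an unadjusted p under 0.05 was 444 in the LV and 419 in the IVS. Weighting arrays gave 744 in the LV, and slide as a block gave 879 in the IVS. Leaving out each array gave 298 to 603 in the LV and 228 to 852 in the IVS, where Control lambs 1 (261), 2 (253), 3 (228), 5 (708) and 8 (852) moved it most. Leaving out slides, chosen after seeing the data, gave 1292 without slide 1, 767 without slide 2, 193 without slide 3 and 1451 without slide 5. The count of listed NADPH and isocitrate genes, 0 in both tissues, became 1 without slide 1 and 1 without slide 2 (ME1). In the IVS it became 1 without slide 5 and was 0 to 1 over single arrays (TALDO1, without Control lamb 8). The causes were not tested. Leaving out a slide or an array leaves fewer samples, and some counts then rose while others fell. Replicate numbers were not taken to pair the tissues, since same-numbered arrays had r of -0.21 to 0.62, over 0.1 in 6 of 16 pairs. Those 6, Control 6 and 8 and CORT 5 to 8, with r of 0.27 to 0.62, were most like their own number among 8, so some numbers may mark a lamb. Between Control and CORT lambs r was 0.0032 to 0.29 in the LV and -0.15 to 0.42 in the IVS, with 2 and 1 of 8 most like their own number. With the replicate block the counts were 536 in the LV and 639 in the IVS, and the IVS minus LV difference of IDH1 was 0.16 (adjusted p 0.421) in Control and 0.032 (adjusted p 0.944) in CORT lambs. The alternatives for agreement between probes were not run because IDH1 has 1 probe, and the deposited matrices, normalized by tissue, could not serve the comparison of tissues.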
